A study of Mus musculus with 6 samples.

Results

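Binding of the transcription factor MafA was examined at 9 genes of its own family and of dimerisation partners of the small MAF proteins. They were the large MAF genes Mafa, Maf and Nrl, the small MAF genes Mafg, Maff and Mafk, and the CNC genes Bach1, Bach2 and Nfe2l2. These are 9 of 21883 protein-coding genes of the RefSeq table of GRCm38.p6. For each gene, every deposited peak that touched the gene body or the 50 kb on either side was taken. The question addressed by the choice was where MafA lay at its own gene and at the genes of related factors.

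The study performed CUT&RUN, in which an antibody directs a nuclease to its target in permeabilised cells and the released fragments are sequenced. Its cells were MIN6, a mouse insulin-secreting line with features of pancreatic beta cells, 500000 per sample, permeabilised with 0.01% digitonin. There were 3 groups of 2 replicates without a further treatment or genotype in the labels: one with an antibody to the cells' own MafA, one with IgG as the negative control, and one for H3K4me3, a histone mark of active gene starts, as the positive control. For MafA and H3K4me3 each library had its peak list, while IgG was not analysed here. The labels do not say whether replicates were separate cultures, so the p-value given further on measures only the spread between these libraries.

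Large MAF proteins carry an activation domain and can bind DNA as homodimers, and MafA is known as an activator of insulin transcription in mature beta cells. Small MAF proteins lack that domain and pair with CNC proteins. Pairs with NRF2, the product of Nfe2l2, activate genes of the antioxidant response through a DNA element with the core TGACNNNGC, and pairs with BACH1 or BACH2 repress through related elements. MAF proteins read the flanking letters TGC next to such cores, so TGCTGA is a common core for the large MAFs.

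Promoter letters are shown first for the genes whose starts separated into those under MafA and those not under it. In the RefSeq promoter table (GRCm38.p6), 7 of the 9 genes were matched, with 9 start windows of 250 bases before to 50 bases after a start. Mafa and Maf were not matched. The windows of Bach1, Mafg and the later 2 of 3 Maff starts lay under a MafA region and an H3K4me3 region. Those of Mafk and Nfe2l2 lay under H3K4me3 without MafA, and those of Nrl, the first Maff start and the internal Bach2 start lay under neither. The 250 bases before the start are printed 5′ to 3′ along the gene, for Mafg, Bach1 and the second Maff start (under MafA) and then for Mafk and Nfe2l2 (not under MafA). Capitals mark TGCTGA or TGACNNNGC on either strand and are read in reverse complement where the match is on the other strand.
Mafg, chr11:120633548-120633797, minus strand: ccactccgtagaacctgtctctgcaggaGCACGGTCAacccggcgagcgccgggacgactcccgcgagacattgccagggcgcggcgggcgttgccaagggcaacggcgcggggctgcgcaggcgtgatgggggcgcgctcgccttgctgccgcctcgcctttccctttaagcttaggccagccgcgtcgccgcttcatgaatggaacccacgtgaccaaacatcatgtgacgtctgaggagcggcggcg
Bach1, chr16:87698704-87698953, plus strand: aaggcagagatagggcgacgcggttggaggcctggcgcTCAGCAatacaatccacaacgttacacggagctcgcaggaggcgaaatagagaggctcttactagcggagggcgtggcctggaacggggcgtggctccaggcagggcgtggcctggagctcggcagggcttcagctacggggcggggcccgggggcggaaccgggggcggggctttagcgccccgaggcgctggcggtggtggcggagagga
Maff, chr15:79347270-79347519, plus strand: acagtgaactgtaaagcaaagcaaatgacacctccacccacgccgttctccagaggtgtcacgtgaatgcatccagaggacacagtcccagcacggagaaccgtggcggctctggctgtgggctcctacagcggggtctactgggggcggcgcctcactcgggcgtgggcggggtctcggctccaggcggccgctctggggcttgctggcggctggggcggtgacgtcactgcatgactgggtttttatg
Mafk, chr5:139791286-139791535, plus strand: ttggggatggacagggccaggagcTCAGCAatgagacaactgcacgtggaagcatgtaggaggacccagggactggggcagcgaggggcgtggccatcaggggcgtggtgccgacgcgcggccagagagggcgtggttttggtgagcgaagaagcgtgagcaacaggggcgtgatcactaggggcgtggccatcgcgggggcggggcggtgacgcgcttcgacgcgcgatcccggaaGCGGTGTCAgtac
Nfe2l2, chr2:75704664-75704913, minus strand: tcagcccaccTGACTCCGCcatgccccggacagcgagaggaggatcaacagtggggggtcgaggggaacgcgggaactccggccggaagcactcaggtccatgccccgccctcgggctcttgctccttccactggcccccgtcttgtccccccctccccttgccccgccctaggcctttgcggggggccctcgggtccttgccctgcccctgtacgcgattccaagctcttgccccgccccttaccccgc

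Among these 9 windows, neither TGCTGA nor TGACNNNGC was found only under MafA. TGCTGA stood in 2 of the 9 windows: one match began 212 bases before the Bach1 start, under MafA, and the other 226 bases before the Mafk start, where no MafA peak was listed. Among all 32850 promoter windows 19.5% held it, against 18.1% of the windows under both marks and 12.6% of those under H3K4me3 alone. TGACNNNGC stood in 4 of 9 windows, at Mafg (222 bases before the start), Mafk (13 bases), Nfe2l2 (240 bases) and the first start of Maff (112 bases), and in 12.4% of all windows, 16.8% of those under both marks and 13.4% of those under H3K4me3 alone. TGACTCA, the AP-1 site, which can overlap TGACNNNGC when GC follows, stood in 0 of 9 and in 5.20% of all. TGCTGA can overlap both of the other motifs by the letters TGA. The promoters of Mafg and Bach1 were rich in G and C (69.7% of the 300 bases each), as were those of Mafk (68.3%) and Nfe2l2 (68.7%), while the median was 52.7% over all promoters and 61.7% over those under both marks. The later 2 Maff windows, also under MafA, had 61.3% and 59.7%. These matches describe letters in the window and show no binding site.

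There were 33013 and 42747 MafA peaks in replicates 1 and 2, and 16020 and 16904 H3K4me3 peaks. Depth was not stated, but whole fragments at each summit, the highest point of a peak, could be recovered from the deposited values. Summits had medians of 25 and 46 fragments for MafA and of 759 and 263 for H3K4me3. H3K4me3 lay within 1 kb of a start of 7 of 8 beta cell marker genes, 0 of 4 acinar, 0 of 3 duct, 1 of 3 blood 0 of 4 fibroblast and endothelial, 0 of 2 delta cell and 0 of 1 liver genes. It also lay at 3 of 4 alpha cell genes, among them Gcg, which encodes glucagon.

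In the windows of the 9 genes there were 66 MafA peaks in replicate 1 and 87 in replicate 2, and 35 and 39 H3K4me3 peaks. Peaks of the 2 lists that shared at least 1 bp were joined into one region, which took its values from the strongest peak of each list. The values used are the authors' own fold enrichment, the ratio of fragments at the summit to the modelled background, and −log10 q. Of the MafA peaks, 92.4% of replicate 1 and 66.7% of replicate 2 had a partner, against 81.2% and 60.8% over the whole lists. They formed 57 MafA regions, and the H3K4me3 peaks formed 35.

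MafA was listed in both replicates at 8 of the 9 genes, all but Mafk. The background was high: 66.1% of protein-coding genes had a MafA region in the gene or within 50 kb. At a start, taken as within 1 kb of an annotated one, a MafA region lay at 4 of 9 genes (Mafg, Maff, Bach1 and Bach2), against 20.4% of protein-coding genes. H3K4me3 lay at a start of 8 of 9, against 57.8%, and of those 8 genes 4 had MafA there too, against 33.9% of all genes with H3K4me3 at a start. These are shares of 9 genes set beside a background, with no test. For every gene that was not matched in the promoter table, Mafa and Maf among them, either gene end was taken as a start. The background shares can thus include 3′ ends.

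**Figure D1:**
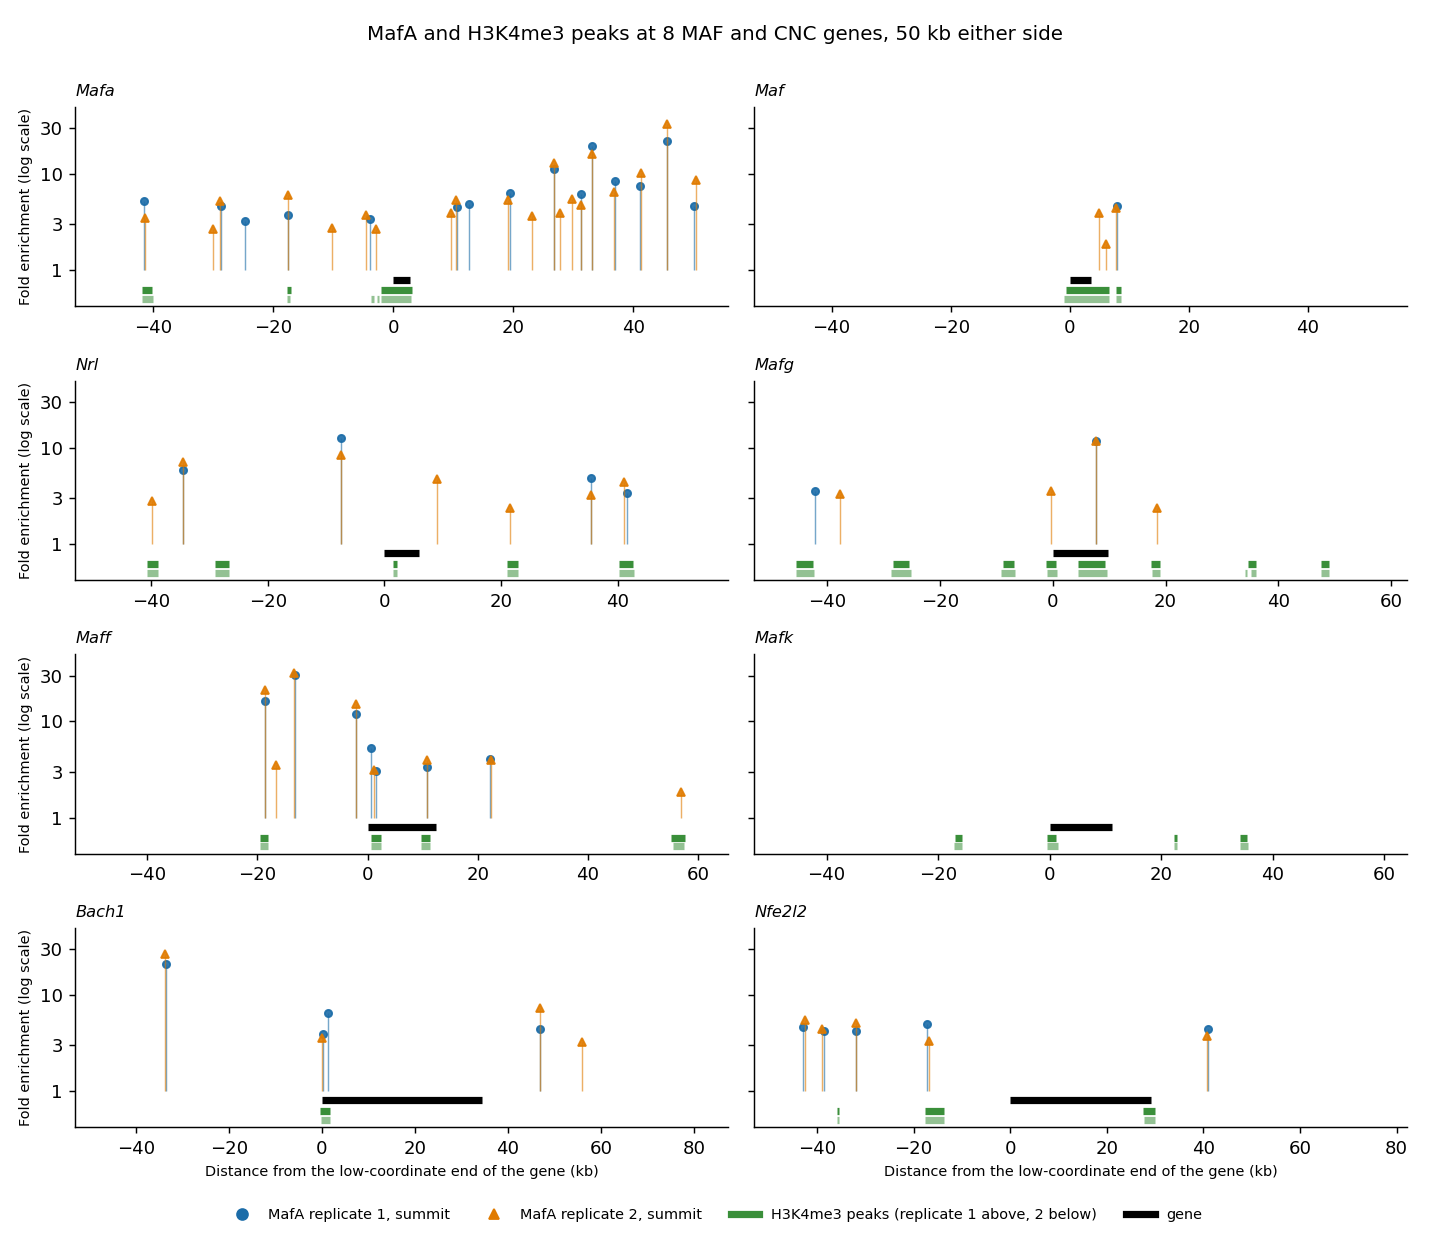
MafA and H3K4me3 peaks at 8 genes (Bach2 is drawn separately), plotted by distance in kb from the gene's low-coordinate end. Points are MafA summits at their fold enrichment (log scale; circles replicate 1, triangles replicate 2), black bars are genes, and green bars are H3K4me3 peaks of replicate 1 (upper) and 2 (lower). At Mafa the high points stand on the right, up to 22.2-fold and 32.9-fold, away from the H3K4me3 domain over the gene, and the Mafk panel has no MafA point.

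Among the large MAF genes, Mafa had 13 MafA regions in its window of 102.8 kb, and none over the gene itself. Mafa lay at chr15:75745501-75748321 on GRCm38. Per 100 kb of window this came to 12.6, against a median of 0.925 over all protein-coding genes and a 90th percentile of 3.52. A single gene of 21883 was denser, Idh2, with 16 regions (12.9 per 100 kb), which encodes a mitochondrial isocitrate dehydrogenase. After Mafa came Irf2bp2 (11.4), Slc2a2 (10.7), the beta cell glucose transporter, and Kcnj11 (10.6), the pore of its ATP-sensitive potassium channel. The median of the 13 regions was 5.94-fold, so the locus stood apart by the number of its regions more than by their typical height. Among the strongest peaks alone 5 regions were left and 37 genes were denser, and with 10 kb either side Mafa had 2 regions, at the 98.0th percentile of genes.

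The regions at Mafa were lopsided. The RefSeq tables used here give no strand for Mafa, but as background it is read toward lower coordinates, and its H3K4me3 summit in replicate 2 lay 294 bp inside the high-coordinate end. Beyond that end lay 9 of the 13 MafA regions, all inside the neighbouring gene Zc3h3, and 4 lay on the other side. The strongest, chr15:75790026-75792795, had a fold enrichment of 22.2 in replicate 1 and 32.9 in replicate 2, from 156 and 457 fragments, with summits 4 bp apart. It stood 42.9 kb beyond the gene end, at the 99.3rd percentile of all MafA regions.

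Another strong region, chr15:75777423-75779112, 30.2 kb beyond the end, reached 19.6 and 16.1-fold from 101 and 171 fragments. At 24.0 kb, chr15:75771595-75772767 reached 11.3 and 13.1-fold from only 29 and 60 fragments over a low background, with its summit at the same base in both replicates. The region chr15:75786197-75788012 at 38.4 kb was lower, 7.46 and 10.2-fold, although it held 85 and 217 fragments. Fold enrichment and fragment number thus ordered these regions differently. None of these 4 regions overlapped H3K4me3.

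Close to Mafa, signal was weaker. The region nearest to the gene, chr15:75740858-75742127, lay 4.49 kb below the low-coordinate end at 3.40 and 3.76-fold, the 10.6th percentile of MafA regions, with 22 and 49 fragments and summits 644 bp apart. Upstream of the marked end the nearest was chr15:75755687-75758529. Its replicate 2 peak had its summit 7675 bp beyond the gene end at 5.39-fold (−log10 q 30.2), and a replicate 1 peak had its summit 7718 bp beyond it at 4.56-fold (−log10 q 15.2). A second replicate 1 peak in that region stood 9837 bp beyond the end at 4.91-fold. In the whole window replicate 2 alone listed 6 more peaks and replicate 1 alone 1. Of those in replicate 2, one had its summit 2873 bp below the gene at 2.72-fold. Another lay 6715 bp beyond the high-coordinate end at 3.97-fold (−log10 q 7.96). Both stood nearer to the gene than the regions found in both replicates on their side. As background, Mafa has an upstream control region, called region 3, that binds several islet factors; its coordinates were not in the files used here, so no peak was assigned to it.

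Mafa itself carried a broad H3K4me3 domain, chr15:75743465-75748570, 5106 bp wide (98.9th percentile of H3K4me3 regions), with 16.6 and 19.5-fold and 1794 and 643 fragments. No MafA region found in both replicates overlapped it. H3K4me3 was overlapped by 2 of the 13: one at chr15:75703656-75704160 beside the start of Rhpn1 (5.21 and 3.51-fold), and one at chr15:75727526-75728465 (3.72 and 6.08-fold), 17.6 kb below Mafa, over a narrow H3K4me3 region of 7.71 and 9.60-fold.

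Maf, which encodes c-MAF, had little MafA. Its window (gene at chr8:115703253-115706894) held 1 region in both replicates, chr8:115710861-115711682, at 4.65 and 4.48-fold (27.8th percentile) from 33 and 62 fragments. It stood 4.27 kb beyond the high-coordinate end and overlapped a small H3K4me3 region of 4.21 and 5.97-fold. Replicate 2 alone listed 2 more peaks, one of 3.91-fold with its summit 1296 bp beyond the gene end and one of 1.86-fold. The H3K4me3 domain over Maf was 7496 bp wide, at the 99.8th percentile, with 23.2 and 18.8-fold, so the mark was strong where no MafA region was found in both replicates.

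Nrl, known for specifying rod photoreceptors, was the one gene without H3K4me3 at a start. Its gene (chr14:55518978-55524981, minus strand) held an H3K4me3 region 3453 bp from the start at 8.55 and 6.75-fold. Its window held 4 MafA regions. The highest, chr14:55510661-55512034, reached 12.5 and 8.46-fold from 82 and 112 fragments, with summits 15 bp apart. It lay inside Cpne6, 1080 bp from a Cpne6 start and 12.7 kb from that of Nrl. The next, chr14:55483772-55485094, lay inside Dhrs4 at 5.90 and 7.06-fold, and the remaining pair at 4.91 and 3.24-fold and, over the H3K4me3 region at Dcaf11, 3.41 and 4.43-fold. All 4 lay nearer to a start of another gene than to one of Nrl, and 5 other protein-coding genes shared the window. Replicate 2 alone listed 3 more peaks, so that its list by itself held 7. One of these, chr14:55527788-55528091 at 4.76-fold (−log10 q 9.44), had Nrl as its nearest start, 3018 bp away.

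Among the small MAF genes, the window of Maff held the region with the highest mean of both replicates of all 9 genes, 31.5-fold. The highest value of 1 replicate was in the window of Mafa. The gene lay at chr15:79346621-79359078 on the plus strand, and its window held 6 regions (5.34 per 100 kb, 97.5th percentile of genes). The region chr15:79332946-79334198, 13.3 kb upstream of the first start, had 30.7 and 32.2-fold from 115 and 233 fragments, at the 99.7th percentile. It lay nearer to a start of another gene, Pla2g6, at 4961 bp. The replicates were close in height, and their summits were 63 bp apart. No H3K4me3 region overlapped it.

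Nearer to Maff, the region chr15:79344095-79345706 had its summit 2018 bp upstream of the first start at 12.0 and 15.2-fold, from 112 and 283 fragments. Its edge came within 1 kb of that start, so Maff had 2 regions counted at a start. The other, chr15:79347087-79348686, overlapped the H3K4me3 region around the later starts but was low, 5.25 and 3.11-fold, with summits 447 bp apart. The most fragments at any region of the 9 genes, 290 and 731, were at chr15:79326333-79329003 (16.3 and 21.0-fold). That region lay 18.5 kb upstream of Maff and 287 bp from a start of Pla2g6, a phospholipase gene, over its H3K4me3. The last 2 regions, 1 inside the gene and 1 beyond it, had means of 3.66 and 3.99-fold.

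Mafg had 1 MafA region, and it covered the promoter. The region chr11:120629637-120633959 measured 11.9-fold in both replicates, from 263 and 521 fragments, with −log10 q of 181 and 265 and summits 2 bp apart. At 4323 bp it was wider than 99.8% of MafA regions, and its fragments put it at the 99.4th percentile, above its percentile of fold enrichment, 89.96. Its summit lay 753 bp inside the gene from the start whose upstream letters are printed above. H3K4me3 covered the same stretch, chr11:120629513-120634650, at 23.5 and 26.2-fold. The other 7 H3K4me3 regions in the window had no MafA region. The window, with 10 other protein-coding genes, had a density near the median of genes (0.910 per 100 kb, 49.0th percentile; 81.3rd with 10 kb and 72.0th with 100 kb either side), and 4 further MafA peaks came from 1 replicate each.

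Mafk differed from both other small MAF genes. No MafA peak was listed in either replicate in its window of 111.1 kb (gene at chr5:139791536-139802653). Its start carried H3K4me3 at 19.8 and 17.4-fold, from 952 and 331 fragments, and 3 other H3K4me3 regions stood at the starts of Ints1, Tmem184a and Psmg3. Lists limited to called peaks do not show how much MafA signal lay below the threshold there.

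Among the CNC genes, Bach1 encodes a repressor that is released by haem. Its gene (chr16:87698954-87733346, plus strand) had 3 MafA regions and no other protein-coding gene in the window. The strongest, chr16:87664778-87665956, lay 33.6 kb upstream at 20.9 and 26.6-fold from 67 and 155 fragments, at the 98.7th percentile, with summits 12 bp apart. At the start, chr16:87698670-87700631 had 6.46 and 3.56-fold, from 57 and 175 fragments, over H3K4me3 of 20.3 and 20.4-fold. Its highest summits in the replicates were 1193 bp apart, so the height there comes from different positions. A second replicate 1 peak in that region had its summit 198 bp from the start, at 3.93-fold from 83 fragments. The replicate 2 summit lay 110 bp from the start. The other region, chr16:87745271-87747133, lay 12.5 kb beyond the gene at 4.40 and 7.31-fold.

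Bach2 encodes a related repressor best known in B and T lymphocytes. It is long (347.7 kb, chr4:32238413-32586109, plus strand) and had 25 MafA regions, 20 of them inside the gene. Per 100 kb that was 5.58, the 97.9th percentile of genes (92.9th with 10 kb and 98.4th with 100 kb either side). It was not compared with genes of like length. The strongest, chr4:32529840-32533714, lay 293.6 kb from the 5′ end at 24.9 and 27.2-fold, from 251 and 557 fragments, and its 2 summits were 597 bp apart. It overlapped a weak H3K4me3 region of 4.93 and 3.99-fold (8.14th percentile of H3K4me3 regions).

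Toward the 5′ end of Bach2 stood several strong regions. The one 12.1 kb from the 5′ end, chr4:32246199-32251570, had 19.1 and 17.9-fold with summits 14 bp apart, and was the widest MafA region of the 9 genes at 5372 bp. It overlapped an H3K4me3 region of 11.5 and 8.38-fold. Farther in, at 49.8 kb, 11.6 and 18.1-fold were measured, at 65.1 kb 16.8 and 18.5-fold from 156 and 345 fragments, and at 74.5 kb 14.9 and 10.5-fold. None of these last 3 overlapped H3K4me3 found in both replicates.

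The start of Bach2 itself was weaker in MafA than these internal regions. There chr4:32238280-32242244 had 5.18 and 3.19-fold, with highest summits 1675 bp apart, over H3K4me3 of 18.2 and 17.1-fold. Toward the 3′ end, chr4:32508366-32510599 had 13.9 and 16.8-fold (summits 783 bp apart). The lowest mean among the 25 was 3.92-fold, and their median was 6.35-fold. Replicate 2 alone added 11 peaks at Bach2 and replicate 1 alone added 2.

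**Figure D2:**
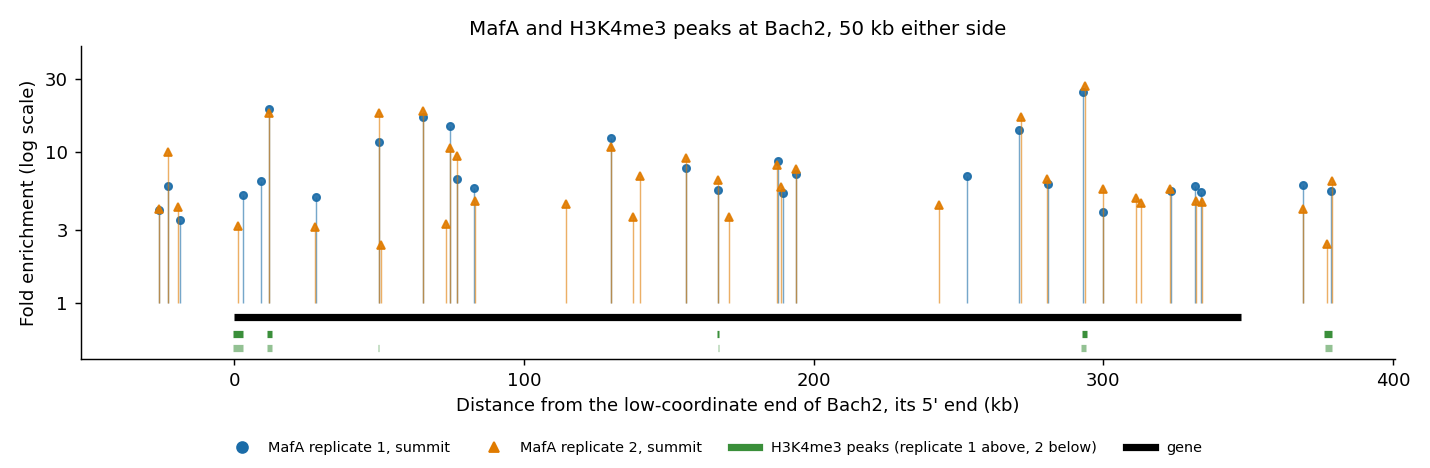
MafA and H3K4me3 peaks at Bach2, by distance in kb from its 5′ end, with the same symbols as in the map of the other 8 genes (fold enrichment on a log scale). Points are all MafA peaks, 28 in replicate 1 and 36 in replicate 2, including those listed in 1 replicate only. They spread with gaps along the gene and the 50 kb either side. High values include those near 12.1, 65.1, 271.8 and 293.6 kb, and those at the start are lower.

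Nfe2l2, which encodes NRF2, had 4 MafA regions around it and none in the gene (chr2:75675513-75704663, minus strand). The highest mean was 5.08-fold, at the 38.4th percentile of MafA regions, so none was strong. On the upstream side chr2:75716296-75717014 lay 11.8 kb before the start at 4.40 and 3.76-fold, from 25 and 44 fragments. The 3 others lay beyond the 3′ end. The highest in its mean, chr2:75632253-75633140, had 4.66 and 5.51-fold from 20 and 33 fragments, and chr2:75643386-75643749 had 4.25 and 5.11-fold from 18 and 43. The last, chr2:75657859-75658959 (5.03 and 3.31-fold), lay 784 bp from a start of Hnrnpa3, over its H3K4me3. The start of Nfe2l2 carried H3K4me3 at 14.3 and 12.8-fold without MafA.

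**Figure D3:**
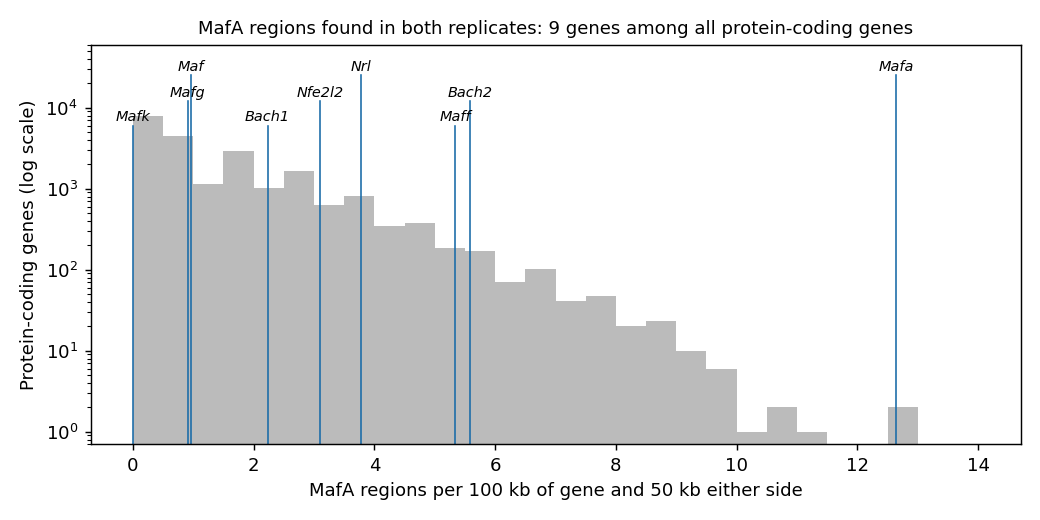
Number of protein-coding genes (log scale) by MafA regions per 100 kb of gene and 50 kb either side, with the 9 genes marked by lines. Mafa at 12.6 stands at the far right with 1 gene beyond it, Bach2 (5.58), Maff (5.34) and Nrl (3.77) lie above the 90th percentile of 3.52, and Mafg and Mafk lie below the median of 0.925.

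By density, the order was Mafa, Bach2, Maff, Nrl, Nfe2l2 (3.10), Bach1 (2.23), Maf (0.965), Mafg (0.910) and Mafk (0). Maf and Mafg, with 1 region each, are told apart only by the length of the window. Of the 9 genes 4 were at or above the 90th percentile of density, which by construction holds 10% of protein-coding genes, 7 were above the median and 2 below it. Which genes passed that mark depended on the window. With 100 kb either side Nrl (81.7th percentile) and Maff (86.5th) fell below it, while Bach1 (92.5th) rose above it. With 10 kb either side Nrl was at the 85.1st percentile. By the highest mean fold enrichment of both replicates the first 3 were instead Maff, Mafa and Bach2. This order was not that of the single replicates, which gave Maff (30.7), Bach2 (24.9) and Mafa (22.2) in replicate 1, and Mafa (32.9), Maff (32.2) and Bach2 (27.2) in replicate 2. By fragments the first 3 were Maff, Bach2 and Mafg.

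In height the 57 regions as a whole were close to all 25894 MafA regions. Their median mean fold enrichment was 5.91, against 5.75 over all. Their median fragments were 32 and 69 in the replicates, against 30 and 62. Of the 57, 13 (22.8%) were at or above the 90th percentile of fold enrichment, which holds 10% of all MafA regions, and those 13 came from Mafa, Maff, Bach1 and Bach2. The Mafg region fell just short of that mark. Regions of 1 gene share a locus and are not independent of each other.

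The replicates gave like heights at these regions. The log2 ratio of replicate 2 to replicate 1 had a median of 0.13 and an SD of 0.42 over the 57 regions, and all 57 were within 2-fold. Replicate 2 was higher at 34. Spearman's rho between replicates was 0.793 over the 57 regions and 0.779 over all, as a description across regions of the same 2 libraries. The summits lay within 300 bp of each other at 41 of 57 regions, with a median gap of 70 bp. Of the 27 regions chosen to be described, 8 had summits farther apart and 6 differed by over 1.5 times in height.

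**Figure D4:**
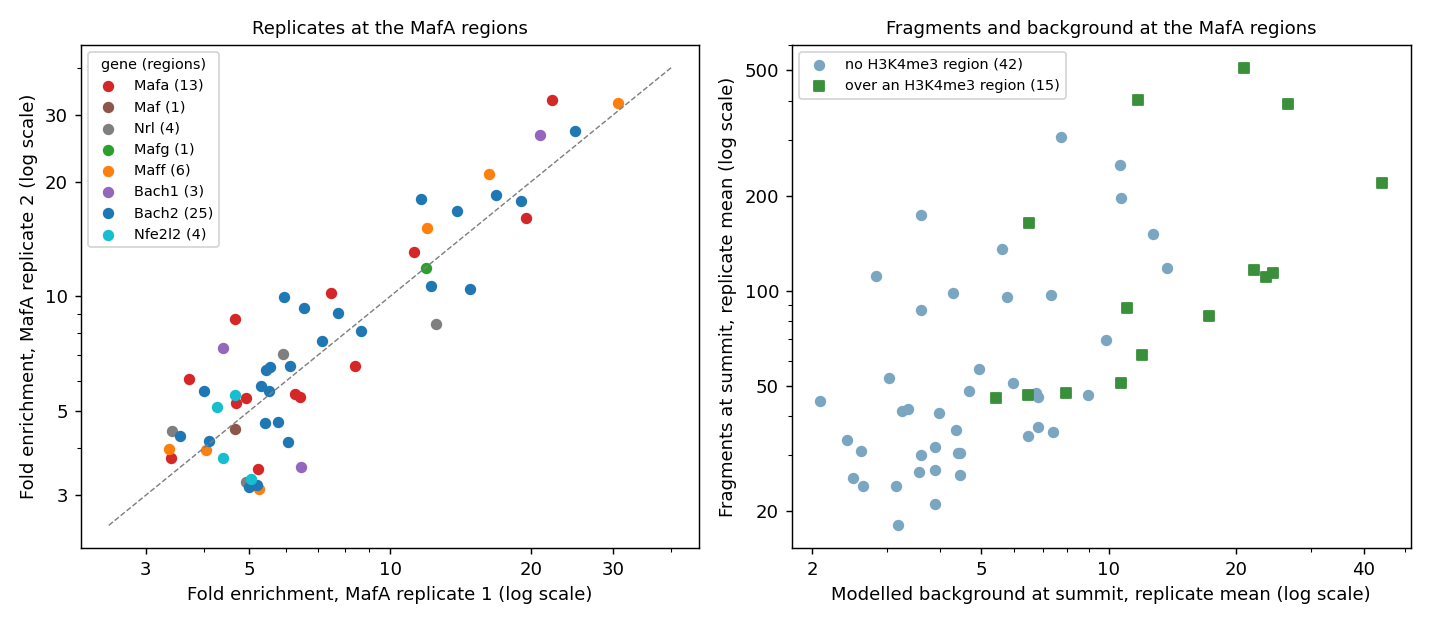
Left, fold enrichment of the 57 MafA regions in replicate 1 (x axis) and replicate 2 (y axis), on log scales, coloured by gene, with the line of equality. Right, fragments at the summit against the modelled background there, as means of both replicates on log scales, with the 15 regions over H3K4me3 as green squares: they stand to the right of most of the 42 others.

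Overlap with H3K4me3 was near the background. An H3K4me3 region was overlapped by 15 of the 57 (26.3%), against 23.5% of all MafA regions, and without Bach2 it was 10 of 32. Of the 35 H3K4me3 regions 15 (42.9%) overlapped MafA, against 37.4% of all. The 15 MafA regions over H3K4me3 held more fragments (medians 57 and 132) than the 42 others (28.5 and 60.5). Their modelled background was also higher, 9.12 and 14.6 against 3.51 and 5.0, and their fold enrichment was 5.25 and 4.48 against 6.08 and 6.82. The part of this background in the fold enrichment at starts was not tested.

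In these 9 windows MafA summits lay farther from starts than H3K4me3 summits. The median distance from a summit to the nearest annotated start, over all peaks of a library in the 9 windows, was 11874.5 and 12014 bp in the MafA libraries and 301 and 324 bp in the H3K4me3 libraries. The groups did not overlap, with means of 11944 ± 98.6 bp and 312.5 ± 16.3 bp (SD, n = 2 each). The difference was 11632 bp (two-sided exact permutation test, p = 0.333, the smallest that 2 against 2 libraries can give). It was 23844 bp among the strongest peaks of each list and 34055 bp for peaks in the gene bodies alone. The long gene Bach2 held 28 of the 66 MafA peaks of replicate 1 and 36 of the 87 of replicate 2. Of the MafA summits inside the gene bodies it held 23 of 29 in replicate 1 and 30 of 34 in replicate 2. The MafA distances therefore lean on that gene. They were not computed without Bach2, nor over all peaks of the lists. Of the 57 MafA regions 24 lay inside the gene in question, 20 of them in Bach2. The nearest start belonged to the gene in question for 28 regions and to another gene for 29. Where either gene end was taken as a start, the nearest one can be a 3′ end, which also bears on the distances above. The 9 regions inside Zc3h3 were counted to a point of that gene on the side of Mafa, where no H3K4me3 peak was listed. The split of 28 and 29 depends on that choice. A region in a window is therefore not assigned to a gene by these data.

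Other genes of the same pathways gave a setting for these counts. Of CNC genes outside the 9, Nfe2 had 3 MafA regions, Nfe2l1 had 5 (the highest at 14.2-fold) and Nfe2l3 had 0. Of 5 genes that control NRF2, such as Keap1, its inhibitor, all had a MafA region within 50 kb and 1 had one at a start, with a median density of 2.28 per 100 kb. Of 13 targets of CNC and small MAF pairs, 11 had a region within 50 kb and 6 at a start, with a median density of 1.86. Among these, the highest regions were 25.8-fold at Fth1 (ferritin heavy chain), 24.99 at Gclm (glutathione synthesis), 19.2 at Srxn1 (sulfiredoxin) and 18.1 at Hmox1 (haem oxygenase, the classical BACH1 target).

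Factors known to act at the Mafa control region had a higher median. All 10 of them, among them Pdx1, Neurod1 and Pax6, had a MafA region within 50 kb, 6 had one at a start, and their median density was 4.17 per 100 kb, against 3.10 for the 9 genes. The AP-1 genes, a bZIP family outside the MAF and CNC group, had a region at 9 of 9 within 50 kb and at 5 of 9 starts, with a median density of 3.54. The beta cell marker genes had 8 of 8, 7 of 8 and 5.32. The factors, the AP-1 genes and the beta cell markers were each above the 9 genes in the share within 50 kb, the share at a start and the median density, by differences that were not tested. Pdx1 and Nkx6-1 stand in both the list of factors and that of beta cell markers. Of the 4 alpha cell markers 3 had a region within 50 kb and 2 at a start, with a median density of 1.81. Marker genes of other tissues had lower densities than that, with medians of 0.942 for acinar, 0.397 for duct, 0.901 for blood and 0.651 for fibroblast and endothelial genes, and 0 of these 14 genes had MafA at a start. The delta cell genes had a median of 1.45 and the liver gene Alb 0.864, with 0 of 2 and 0 of 1 at a start. Single regions at such genes could still be high, with means of 21.96-fold at Alb and 11.5-fold at Krt19, a duct gene.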

How the data were processed

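Per the labels, CUT&RUN libraries came from MIN6 cells, with groups and replicate numbers taken from the sample titles. The submitters' processing notes name MACS2 and the build as GRCm38 and mm10. The aligner, versions, duplicate handling and control library are not given in the sources used here. The authors called narrow peaks on each library. Their deposited fold enrichment is a linear ratio at the summit, and their deposited significance is −log10 of the p-value and q-value, at least 2.00 for q. The deposited score was not used, and the deposited offset gave each summit's position.

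Positions and promoter letters came from RefSeq tables of GRCm38.p6. Starts were those of the promoter table and the 5′ gene end. For every gene without an entry there, Mafa and Maf among them, either gene end was taken as a start. Tables were handled with pandas 2.3.3 in Python 3.11.15, tests with scipy 1.17.1 and numpy 2.4.6, and plots with matplotlib 3.10.9. Whole fragments were recovered from the fold enrichment, (pileup + 1) / (background + 1), and the Poisson p, with a scaling factor per library between 0.2 and 1 and a relative tolerance of 0.0001. The factors were 0.415 and 0.997 for H3K4me3 and 1 and 0.746 for MafA, and solved at least 99.96% of peaks. The routines were tested on simulated data. Percentiles count the share of all genes or regions at or below a value, with ties at their middle rank.

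The genes, lists and tests were chosen with earlier results of these data known. For each gene the 4 MafA regions of highest mean fold enrichment and the one nearest to a start were described, or all of them where there were up to 5, and other regions or single peaks named were chosen after their values were seen. Motifs at MafA summits were not counted, for want of a genome, and promoters were searched in their place. The counts were repeated with each library left out, with other windows, with 50% reciprocal overlap, with peaks merged within 1 kb, with the 16020 strongest peaks of each list and with a −log10 q of 5 or more, and the distance test with a replicate block.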

Additional observations from a re-analysis of the deposited data

How the results depend on the processing

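The number of MafA regions at the 9 genes, 57 as reported, was 29 among the strongest peaks, 30 with 10 kb either side and 24 in the gene bodies alone. From 1 MafA list alone it ranged from 66 to 87, the latter without MafA replicate 1. MafA regions over H3K4me3, 15 as reported, numbered 6, 9 and 8 in those 3 settings and 15 to 23 when 1 library was left out, 23 without MafA replicate 1. Genes with a MafA region, 8 as reported, were 4 for gene bodies alone (Mafg, Maff, Bach1 and Bach2) and 6 to 9 in the other settings. The number with H3K4me3 at a start was 8 in all settings run. Mafa, with 13 regions, had 5 among the strongest peaks (37 genes denser), 2 within 10 kb, 20 without MafA replicate 1 and 15 without MafA replicate 2 (4 genes denser). Mafk had 0 in all of these and 1 within 100 kb. The distance difference ranged from 11562 to 34055 bp, in the same direction throughout. Its largest value was for the gene bodies, where most MafA summits were in Bach2, and no setting left Bach2 out. With a replicate block its p was 0.5 (difference 11632 bp), again the smallest possible, and no label ties same-numbered libraries to each other. Motif alternatives at summits were not run. With 25 fragments at a median MafA summit in replicate 1, weak regions may be missed in 1 list.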
